A study of Mus musculus with 12 samples.

Results

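The genes described here were the 4 inhibitor of DNA binding (Id) genes Id1, Id2, Id3 and Id4 and 6 genes tied to bone morphogenetic protein (BMP) signaling, namely Smad6, Smad7, Smad9, Bambi, Skil and Bmp4. They are 10 of the 40077 genes in the cell table and 10 of the 34508 genes in the tumor table, and each symbol was matched once in each table. They were selected on the difference of Id3 between treated and control cells, which was very large. Their differences in cells are therefore given as a description, without a test. The tumors provide a comparison that this difference did not enter, although earlier results of these data were known when the members were chosen. The question was whether the rise of Id3 was shared by the other Id genes, by the feedback genes of SMAD signaling, or by other short and unstable transcripts.

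Myc-CaP, a mouse prostate cancer line that carries a MYC transgene, was treated in culture with DMSO or with YJ1206 (1 μM, 24 hours), with 3 libraries per group. The labels give no time for DMSO. YJ1206 is an orally available PROTAC, a compound that directs the kinases CDK12 and CDK13 to degradation. In the second experiment, Myc-CaP tumors grown under the skin of male FVB mice came from mice dosed by mouth with vehicle or with 100 mg/kg YJ1206 at 3 doses per week (3 libraries per group). The cells of both groups were of the same line and the mice of both groups carried the same grafted line, so that the agent was the labelled difference within each experiment.

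Id proteins contain a helix-loop-helix domain but no DNA-binding region, and they sequester the E proteins (Tcf3, Tcf4 and Tcf12) that other helix-loop-helix factors need as partners. BMP ligands bind paired serine/threonine kinase receptors, which phosphorylate SMAD1, SMAD5 and SMAD9; these move to the nucleus with SMAD4, and the Id genes and the inhibitory SMAD genes are among their best known targets. Id transcripts are also short-lived and respond to serum and growth factors, so their level follows both signaling and the turnover of RNA.

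SMAD proteins recognize a short box with the letters GTCT, often paired as the palindrome GTCTAGAC, and BMP-responsive enhancers carry the GC-rich site GGCGCC. The search for these letters covered both strands in windows from 250 bases before to 50 bases after the start of a gene. Sequences came from RefSeq for the build GRCm38.p6. Of the 32851 mouse windows of this kind, 0.213% held the palindrome, 11.9% held the GC-rich site and 88% held the box, which also lies inside the palindrome. The stretches below are 30 bases each, written 5′ to 3′ on the strand of the gene, and are shown for 6 of the 10 members. Each holds the longest of these motifs found in its window. The windows of Id1, Skil, Smad7 and Bambi were not examined as members, so the lack of a stretch says nothing of their motifs. Capitals mark the motif.

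Id2: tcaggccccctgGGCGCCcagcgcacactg
Id3: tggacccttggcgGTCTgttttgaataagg
Id4: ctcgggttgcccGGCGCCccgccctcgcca
Smad6: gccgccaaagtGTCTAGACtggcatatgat
Smad9: gcacggccgcctGGCGCCcttccagcgcgg
Bmp4: ttggaaggtacagAGACtagttggtgcatg

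The Id2 stretch (chr12:25096306-25096335, minus strand) had its GC-rich site 231 bases upstream of the RefSeq start. It lay inside the GENCODE span of the gene, which begins farther upstream. The Id4 stretch (chr13:48260956-48260985, plus strand) had the same motif 148 bases upstream. The Smad9 site (chr3:54755519-54755548, plus strand) lay 51 bases upstream. The Smad6 palindrome (chr9:64022045-64022074, minus strand) began 4 bases upstream and ran across the start. Id3, the member with the largest difference in cells, held neither of the longer motifs in its window. It was shown with a SMAD box 68 bases upstream (chr4:136143741-136143770, plus strand), inside the GENCODE span of the gene. The Bmp4 stretch (chr14:46390875-46390904, minus strand) showed the box on the opposite strand, 222 bases upstream. The match of these letters is a description of the sequence and says nothing of whether a SMAD protein was bound.

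In the GENCODE M21 annotation of GRCm38, the Id genes were compact. Id1 spanned 1160 bp (chr2:152736251-152737410), Id3 2259 bp (chr4:136143497-136145755), Id2 3342 bp (chr12:25093799-25097140) and Id4 4799 bp (chr13:48261228-48266026). Only 333 of the 11040 coding genes tested in cells (3.02%) had a span no longer than that of Id3, and the median span was 23349 bp. The SMAD genes were long by comparison. Smad7 spanned 28407 bp, Smad9 45676 bp (chr3:54755582-54801257) and Smad6 68984 bp (chr9:63953076-64022059). Skil spanned 27520 bp, Bambi 8482 bp and Bmp4 7150 bp. The pentamer ATTTA, the core of AU-rich elements that mark unstable mRNAs, occurred 0 times in the 3′ UTRs of Id1 (563 bp) and Id3 (536 bp). It occurred 2 times each in Smad6 and Bmp4, 3 in Id2, 4 each in Smad7 and Bambi, 8 in Smad9, 9 in Id4 and 14 in Skil. The genes tested in cells had a median of 2 in a median 3′ UTR of 1187 bp, and 29.6% of those genes had none. Per kb, the members other than Id1 and Id3 ranged from 0.999 (Bambi) to 5.9 (Bmp4), beside a median of 1.41.

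Depth ranged from 13936902 to 18519926 estimated counts per library in the cells and from 15391544 to 26928365 in the tumors, so 3 counts corresponded in cells to between 0.151 and 0.23 CPM, counts scaled to 1000000 per library with TMM factors, and in tumors to between 0.112 and 0.194 CPM. The 3 DMSO libraries and the 3 YJ1206 libraries of the cells carry library numbers from separate series, so that library series and treatment cannot be told apart there. In the tumors, library 3 of each group lay between libraries 1 and 2 in most genes that separated those libraries (92.7% of 2515 genes with vehicle and 89.5% of 1264 with YJ1206), and 7 of the 9 fitted members did so in each group; in cells the shares were 77.4% and 70.8%. The closest mix held a share of 0.60 of library 1 with vehicle and 0.35 with YJ1206, and library 3 differed from it by 1.51 and 1.62 times sampling noise (median chi-square). The labels do not say whether the third libraries are separate tumors; if they are not, each tumor group holds 2, and the adjusted p-values of all libraries are too small. The fits of libraries 1 and 2 alone are therefore given beside the tumor results. Of the prostate epithelial markers, Krt8 (3.00 ± 0.201 CPM with DMSO, mean ± SD) and Hoxb13 (10.8 ± 0.245 CPM) were present in the cells, and Epcam had no counts in any cell library. Transcripts of the degraded kinases did not fall. Cdk12 was higher with YJ1206 in cells (log2 fold change 0.58 ± 0.035 SE, edgeR adjusted p = 2.26e-14) and in tumors (0.35 ± 0.07, adjusted p = 0.0108), and Cdk13 differed in neither (0.027 ± 0.04 in cells, adjusted p = 0.55, and 0.063 ± 0.058 in tumors, adjusted p = 0.465).

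Levels were compared between genes in TPM, in which transcripts are corrected for length and sum to 1000000 per library. In DMSO-treated cells Id2 was the most abundant member at 280 ± 3.73 TPM, followed by Id1 (26.8 ± 4.27), Skil (24.0 ± 1.09) and Smad7 (22.5 ± 2.62), whose libraries overlapped with those of their neighbors in this order. Smad6 (7.52 ± 0.518) and Id3 (6.92 ± 0.97) also overlapped with each other, and Smad9 was lower at 3.97 ± 0.18. With YJ1206, Id3 reached 151 ± 9.9 TPM and Id1 151 ± 7.94 TPM, and the libraries of the pair overlapped. Id2 remained above both at 421 ± 2.44 TPM.

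In the tumors the order was different. Id2 was again the most abundant (162 ± 31.5 TPM with vehicle), but Skil (95.9 ± 3.89) and Smad7 (44.5 ± 6.55) came next, and every library of each lay above every library of Id1 (11.7 ± 3.02). Smad9 (4.92 ± 0.561) and Id3 (4.81 ± 1.49) overlapped with each other. The vehicle tumor mean was 3.99 times the DMSO cell mean for Skil and 1.98 times for Smad7, against 0.435 times for Id1, 0.579 times for Id2 and 0.696 times for Id3. The tables of cells and tumors were made separately and this contrast was not tested. A tumor library also contains RNA of host cells, and a different number of cells of a type and a different amount of RNA per cell cannot be told apart in it.

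**Figure D1:**
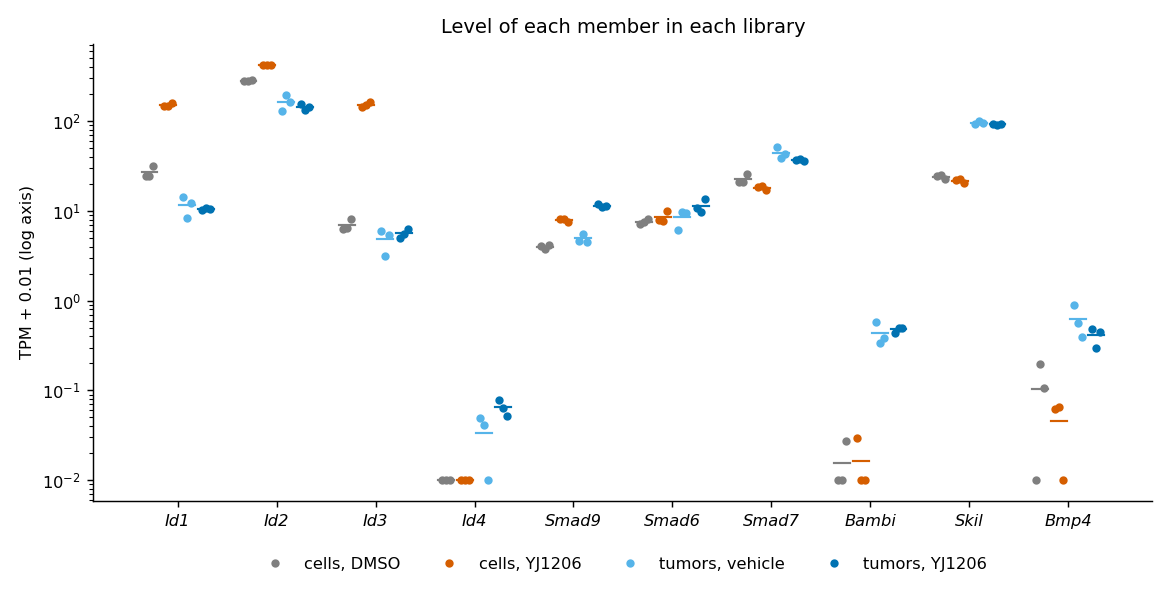
TPM plus 0.01 (log axis) of each of the 10 members in every library; points are libraries, 3 per group, and horizontal lines are group means. Id1 and Id3 reached 151 TPM in YJ1206-treated cells and 10.5 and 5.60 TPM in YJ1206 tumors, whereas Smad9 was higher with YJ1206 in both experiments.

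Of the 10 members, 7 passed the filter on low counts in cells, and in 5 of these every YJ1206 library lay above every DMSO library in CPM. As background, this was so for 38.4% of all 11826 genes tested, 39.2% had every YJ1206 library below, 37.8% were called higher and 38.3% lower, so that a difference of some size was the rule in these cells. The median log2 fold change was 0.91 over the 7 members and −0.017 over all genes tested. Because Id3 chose the set, these counts are descriptive.

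The DMSO libraries held 77, 78 and 99 counts of Id3, whereas 1538, 1535 and 1657 were found in the YJ1206 libraries. After scaling this was 3.95, 4.03 and 4.99 CPM against 110, 116 and 127 CPM, so the groups were far apart and their libraries close to one another. The log2 fold change was 4.76 ± 0.08 (SE), or 27.2-fold. Id3 ranked 21 of 11826 genes by this value, and 1 of the 9318 genes with a mean of at least 5 CPM, ahead of Gm10718 and Ddit4.

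Id1, a classical BMP target, was the member nearest to Id3. It had 10.2, 10.3 and 13.1 CPM with DMSO and 77.2, 76.4 and 85.3 CPM with YJ1206. Again no library of one group came near those of the other. The log2 fold change was 2.83 ± 0.076, or 7.09-fold, which ranked 13 among the genes with a mean of at least 5 CPM.

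Id2, the most abundant of the family, moved less. Its level was 171, 173 and 174 CPM with DMSO and 320, 325 and 327 CPM with YJ1206, so that the spread within each group was small beside the gap between them. The log2 fold change was 0.91 ± 0.03, or 1.88-fold, and the gain in CPM was larger than that of Id3. Id4 had 0 counts in all 6 libraries, which allows at most 0.151 to 0.23 CPM per library. The rank of the Id genes by fold was thus the reverse of their rank by level with DMSO.

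Among the SMAD genes, Smad9, which encodes a receptor-regulated SMAD and is itself a BMP target, had 12.6, 11.9 and 12.8 CPM with DMSO and 31.1, 31.4 and 29.5 CPM with YJ1206. All YJ1206 libraries were well above the DMSO libraries, with a log2 fold change of 1.30 ± 0.08. Smad6, which encodes the inhibitory SMAD that acts mainly on BMP receptors, had 11.8, 12.4 and 13.4 CPM against 16.0, 15.8 and 20.6 CPM. These groups did not overlap in CPM (0.48 ± 0.10), but they overlapped in TPM, with 7.08 to 8.09 against 7.71 to 9.90 TPM (0.15 ± 0.11 on log2(TPM + 1)).

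Smad7, which encodes the inhibitory SMAD of both the BMP and TGF-β branches, and Skil, which encodes a corepressor of SMAD proteins, were the 2 members whose libraries overlapped in CPM. Smad7 had 40.8, 42.1 and 45.2 CPM with DMSO and 43.2, 46.8 and 45.6 CPM with YJ1206, a log2 fold change of 0.079 ± 0.058 that turned to −0.30 on log2(TPM + 1) and to −0.11 with scaling by total counts. Skil had 86.6, 84.6 and 83.4 CPM against 90.4, 97.3 and 84.4 CPM, a log2 fold change of 0.096 ± 0.045 that turned to −0.14 on log2(TPM + 1) and to −0.09 with total counts. In TPM every YJ1206 library lay below every DMSO library for both genes. These scalings moved the median of all genes from −0.017 to −0.24 (log2(TPM + 1)) and −0.20 (total counts), and the share of higher genes among all genes called from 49.7% to 29.2% and 36.1%, so relative to the median gene neither Smad7 nor Skil was far displaced under any of them.

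The ligand gene Bmp4 and the pseudoreceptor gene Bambi, a feedback inhibitor of BMP and TGF-β receptors, were hardly detected in cells. Counts of Bmp4 were 0, 4 and 2 in the DMSO libraries against 1, 1 and 0 after YJ1206, and Bambi had at most 1 count in any library. No difference could be measured at this depth.

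**Figure D2:**
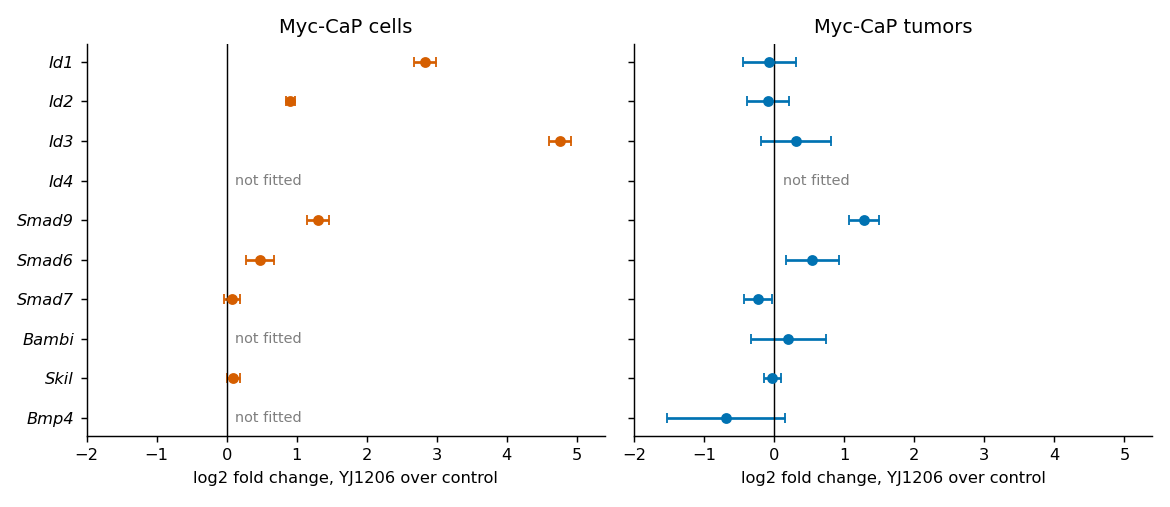
Log2 fold change with YJ1206 of each member in cells and in tumors (points, edgeR with TMM scaling); bars extend 2 SE to each side and 3 libraries entered per group. Id3 stood at 4.76 and Id1 at 2.83 in cells but at 0.31 and −0.072 in tumors, while Smad9 stood at 1.30 and 1.28; the positions of Smad7 and Skil in cells change sign with the scaling.

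In the tumors 9 of the 10 members passed the filter, all but Id4, and 1 was called higher, against a background of 11.9% of 15558 genes tested. None was called lower, against 14.9%, and 2 had an unadjusted p under 0.05 in edgeR. In CPM, every YJ1206 tumor lay above every vehicle tumor in 2 fitted members (background 21.8%), and below in 0 (background 22.8%). The median log2 fold change was −0.028 over the 9 members and 0.0091 over all genes. The share of members called higher was thus close to the share of all genes.

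Smad9 was the member that rose. It had 15.1, 18.8 and 14.8 CPM in the vehicle tumors and 40.9, 38.8 and 39.2 CPM in the YJ1206 tumors, so every treated tumor was above every vehicle tumor by a wide margin. The log2 fold change was 1.28 ± 0.11 (2.43-fold, edgeR quasi-likelihood test, adjusted p = 0.00092), beside 1.30 in cells (1.08 and 0.84 on log2(TPM + 1)). From libraries 1 and 2 alone it was 1.23, with an adjusted p of 0.134 in a comparison that called 1 gene of 15684. The summed level of 10 endothelial markers, cells in which BMP-SMAD signaling is prominent, was also higher with YJ1206 (138 to 158 CPM with vehicle, 166 to 181 CPM with YJ1206), and its part in the level of Smad9 was not tested. In the cultured cells, 6 of these 10 markers had no counts.

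Smad6 had 10.5, 17.6 and 11.4 CPM with vehicle and 19.8, 18.3 and 19.6 CPM with YJ1206. The groups did not overlap in CPM, although vehicle library 2 came close to the treated tumors. In TPM they overlapped, with 6.09 to 9.77 against 9.75 to 13.4 TPM. The log2 fold change of 0.54 ± 0.19 did not pass the threshold (edgeR adjusted p = 0.0793); with DESeq2 it was 0.53 (adjusted p = 0.0423), and without vehicle library 2 it was 0.81 (adjusted p = 0.00103), whereas libraries 1 and 2 alone gave 0.43 (adjusted p = 0.443). Smad7 pointed the other way, with 82.8, 63.6 and 71.9 CPM with vehicle and 57.7, 63.6 and 64.0 CPM with YJ1206. These libraries overlapped in CPM but not in TPM, with 38.7 to 51.6 against 35.5 to 37.4 TPM. The log2 fold change was −0.24 ± 0.10 (edgeR adjusted p = 0.135). It was −0.33 without vehicle library 2 (adjusted p = 0.0189) and −0.27 from libraries 1 and 2 alone (adjusted p = 0.418).

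None of the Id genes passed the test in tumors. Id3 had 3.97, 2.18 and 3.62 CPM with vehicle and 3.55, 4.03 and 4.43 CPM with YJ1206, levels as low as those of DMSO-treated cells. The groups overlapped and the log2 fold change was 0.31 ± 0.25 (adjusted p = 0.389), with an interval of 2 SE from −0.18 to 0.80. Without vehicle library 1 it was 0.50 ± 0.26, and from libraries 1 and 2 alone it was 0.31 ± 0.36 (adjusted p = 0.68). Dose, exposure and time differed from those of the cells, and the difference between cells and tumors was not tested.

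Id1 had 6.72, 4.16 and 5.69 CPM with vehicle and 5.13, 5.41 and 5.16 CPM with YJ1206. The treated tumors fell within the range of the vehicle tumors, with a log2 fold change of −0.072 ± 0.19 (adjusted p = 0.819, 2 SE from −0.45 to 0.31). Id2 had 83.1, 129 and 107 CPM with vehicle and 106, 93.4 and 98.7 CPM with YJ1206, again inside the vehicle range, with −0.096 ± 0.15 (adjusted p = 0.676, 2 SE from −0.39 to 0.20). Both changed sign when 1 vehicle library was left out, Id1 to 0.10 without library 1 and Id2 to 0.072 without library 2. Libraries 1 and 2 alone gave −0.042 for Id1 (adjusted p = 0.955) and −0.09 for Id2 (adjusted p = 0.861). Id4 had between 0 and 3 counts in each tumor library and was not compared.

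Skil was almost level, with 290, 326 and 305 CPM in vehicle tumors and 311, 294 and 299 CPM in YJ1206 tumors (−0.028 ± 0.061, adjusted p = 0.771). The 2 low members were detected in tumors. Bambi had 1.76, 1.05 and 1.16 CPM with vehicle and 1.37, 1.61 and 1.6 CPM with YJ1206 (0.20 ± 0.27, adjusted p = 0.62). Bmp4 had 1.04, 0.675 and 0.452 CPM against 0.601, 0.313 and 0.464 CPM (−0.69 ± 0.42, adjusted p = 0.265). Both overlapped between groups, and at 7 to 39 counts per library only a large change could have been detected. From libraries 1 and 2 alone the log2 fold change was −0.029 for Skil, 0.092 for Bambi and −0.91 for Bmp4, with adjusted p from 0.406 to 0.924.

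The vehicle tumors differed from one another more than the treated tumors did for several members. Vehicle library 2 was the highest of its group for Id2, Smad6, Smad9 and Skil and the lowest for Id1, Id3, Smad7 and Bambi. The same library had 16.3 CPM summed over 5 skeletal muscle markers, against 675 and 413 CPM in vehicle libraries 1 and 3 and 8.41 to 9.64 CPM in the YJ1206 tumors. It also had the lowest fibroblast sum of the vehicle group (1052 CPM, against 2660 and 2000), with 716 to 1644 CPM in the YJ1206 tumors. Leukocyte markers (108 to 143 CPM with vehicle, 134 to 193 with YJ1206), pericyte and smooth muscle markers (101 to 117 and 112 to 162) and adipocyte markers (1.43 to 3.38 and 0.928 to 1.80) overlapped between groups. The part of host cells in the levels of the members was not tested.

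The upstream pathway was read from a list of 64 other genes of BMP and TGF-β signaling. The list was chosen with earlier results of these data known, so its shares in cells and in tumors are descriptive. In cells, 35 were tested, of which 18 were higher, 10 lower and 7 not called, with a median log2 fold change of 0.32 beside −0.017 for all genes; 51.4% of the list was called higher, beside 37.8% of all genes. Of 13 ligand genes only Bmp8a was tested, and it was not called (0.865 and 1.24 CPM, adjusted p = 0.227). The effectors downstream of the receptor were present: Smad4 rose from 111 ± 2.44 to 163 ± 6.69 CPM (0.56 ± 0.038, adjusted p = 3.21e-13) and Smad5 was called at 0.10 ± 0.041 (adjusted p = 0.0276) but had a lower mean with YJ1206 in TPM (25.4 and 22.8), whereas Smad1 had at most 6 counts in any cell library.

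Of 10 receptor and coreceptor genes 9 were tested in cells, and 4 rose and 3 fell (44.4% and 33.3%, beside 37.8% and 38.3% of all genes). The activin receptor gene Acvr2b rose by 1.16 ± 0.19 on the log2 scale (adjusted p = 3.12e-06) and the BMP type I receptor gene Bmpr1b rose by 0.56 ± 0.084 (adjusted p = 1e-06), while the coreceptor gene Eng fell by 1.09 ± 0.31 (adjusted p = 0.00241). Of 3 extracellular antagonists tested, 2 rose and 1 fell (66.7% and 33.3%). Twsg1 rose from 56.9 to 102 CPM (0.84 ± 0.044, adjusted p = 1.22e-15) and Bmper fell. Nbl1 rose from 0.171 to 3.25 CPM, both low levels. Its DMSO level was near the floor of 3 counts, and it passed the filter on low counts through the YJ1206 libraries. Of 6 intracellular negative regulators tested, 4 rose and 1 fell (66.7% and 16.7%). Beside these small lists, 37.8% of all genes were called higher and 38.3% lower. Tob1, which encodes an antiproliferative protein that restrains SMAD signaling, rose from 23.9 ± 2.76 to 124 ± 6.14 CPM (2.37 ± 0.059, adjusted p = 9.4e-23), and the ubiquitin ligase genes Smurf1 (0.60 ± 0.055) and Smurf2 (0.53 ± 0.041) rose too.

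Of 4 other BMP target genes tested in cells, 3 rose and 1 fell (75% and 25%, beside 37.8% and 38.3% of all genes). So few genes allow a description only. Hes1, also a short and unstable transcript, rose by 2.10 ± 0.15 on the log2 scale (adjusted p = 6.07e-13), Gata3 rose by 0.86 ± 0.029 (adjusted p = 5.04e-20), and Runx2 fell by 0.23 ± 0.064 (adjusted p = 0.00221). In the TGF-β branch, 3 of 10 genes rose and 4 fell (30% and 40%, near the shares of all genes), among them Smad3, which fell from 102 ± 4.97 to 54.7 ± 4.75 CPM (−0.90 ± 0.052, adjusted p = 8.49e-15). Tgfb1 rose by 0.46 ± 0.068 on the log2 scale. Of the E protein genes, the partners that Id proteins sequester, Tcf3 (−0.31 ± 0.038, adjusted p = 3.36e-08) and Tcf4 (−0.38 ± 0.035, adjusted p = 1.4e-10) fell in cells and Tcf12 was not called (0.021 ± 0.035, adjusted p = 0.598).

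In the tumors 53 of the 64 pathway genes were tested, of which 10 were higher and 3 lower, with a median of 0.03 beside 0.0091 for all genes; 18.9% was called higher, beside 11.9%. Of 8 ligand genes tested only Bmp5 was called, rising by 0.40 ± 0.12 on the log2 scale (adjusted p = 0.0427). Tob1 (0.56 ± 0.10, adjusted p = 0.00771), Bmpr1b (0.62 ± 0.17, adjusted p = 0.0311) and Gata3 (0.65 ± 0.14, adjusted p = 0.0151) rose, and Runx2 fell (−0.57 ± 0.13, adjusted p = 0.0199), each with the sign it had in cells. Tgfb1 fell in tumors (−0.40 ± 0.08, adjusted p = 0.0108), the opposite of its sign in cells, and the antagonist gene Bmper fell by 2.22 ± 0.30 on the log2 scale (adjusted p = 0.00308). None of Smad1, Smad4, Smad5 and the 3 E protein genes was called in tumors, with adjusted p from 0.0598 for Smad1 to 0.873 for Smad4. The count of pathway genes called higher was 0 from libraries 1 and 2 alone and 2 without vehicle library 3 or without YJ1206 library 3.

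A list of 45 short and unstable transcripts, most of them immediate early genes, served as the other comparison for Id3. Its genes were likewise chosen with earlier results of these data known, so its shares in cells and in tumors are descriptive. RNA stability was not measured here. In cells 43 were tested, of which 32 were higher (74.4%, beside 37.8% of all genes) and 7 lower, with a median log2 fold change of 0.72. Fos rose from 0.766 ± 0.232 to 12.3 ± 1.95 CPM (4.0 ± 0.21, adjusted p = 6.68e-16), the stress gene Gadd45b from 17.8 ± 0.447 to 249 ± 15.9 CPM (3.81 ± 0.052, adjusted p = 2.03e-28) and Egr1 from 1.48 ± 0.0995 to 8.01 ± 0.719 CPM (2.43 ± 0.19, adjusted p = 3.32e-12). Egr2 also rose (3.52 ± 0.49, adjusted p = 3.59e-07), from 0.172 CPM. Not all such transcripts rose: Mcl1, which encodes an antiapoptotic protein, fell from 201 ± 6.21 to 100 ± 3.70 CPM (−1.0 ± 0.038, adjusted p = 9.25e-19), and Trib1 (−0.92 ± 0.062), Fosl1 (−0.82 ± 0.041) and Socs3 (−0.56 ± 0.074) fell.

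In the tumors all 45 were tested, and the list moved the other way, with 0 higher and 21 lower in edgeR (46.7%, beside 14.9% of all genes) and a median of −0.56. Egr1 fell from 219 ± 2.68 to 11.6 ± 1.17 CPM (−4.24 ± 0.084, adjusted p = 2.09e-06), Fosl1 from 114 ± 44.4 to 17.8 ± 6.37 CPM (−2.67 ± 0.37, adjusted p = 0.00312), and Egr3 (−2.15 ± 0.46) and Fosb (−2.0 ± 0.29) fell too. Without vehicle library 2 the count higher was 4, and from libraries 1 and 2 alone the count lower was 1. Id3 and Id1, which were high together with most of the list in cells, were called in neither direction in tumors, the Id3 interval reaching down to −0.18 and that of Id1 to −0.45.

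**Figure D3:**
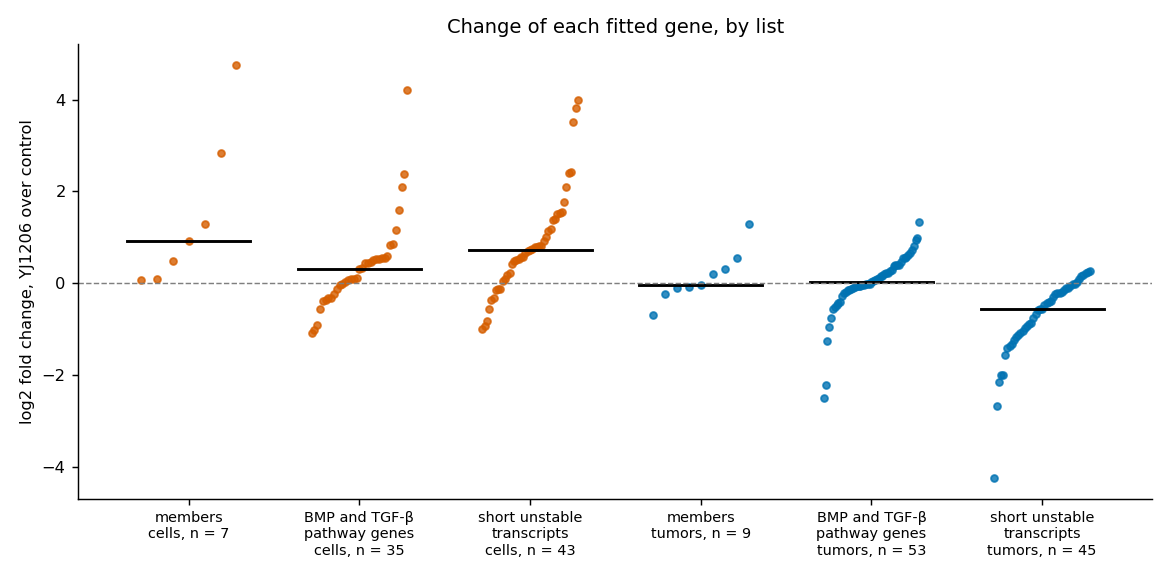
Log2 fold change with YJ1206 of each fitted gene, sorted within 3 lists and shown for cells and for tumors; points are genes and the thick lines are medians. The short unstable transcripts had a median of 0.72 in cells and −0.56 in tumors, the pathway genes 0.32 and 0.03, and the members 0.91 and −0.028.

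Gene span was related to the share of large rises in cells over all tested coding genes. When these genes were divided into quintiles by span, 14% of the shortest quintile (up to 8263 bp) were at least 2-fold higher with YJ1206, against 7.88%, 7.25%, 5.93% and 4.44% of the longer quintiles in order, although the median log2 fold change differed little (0.073 in the shortest quintile and −0.06 in the longest). The share called higher was not ordered by span (42%, 37.7%, 40.3%, 40.1% and 35.1%, shortest to longest). The share at least 2-fold lower was not computed. Id1, Id2 and Id3 belonged to the shortest quintile. The spans of Id4 and Bmp4 fell within its bounds, but these genes were not fitted in cells. Smad9, with log2 fold changes of 1.30 in cells (0.84 on log2(TPM + 1)) and 1.28 in tumors, belonged to quintile 4 and Smad6 to the longest. In the tumors the shares at least 2-fold higher ran from 4.45% to 2.04%.

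**Figure D4:**
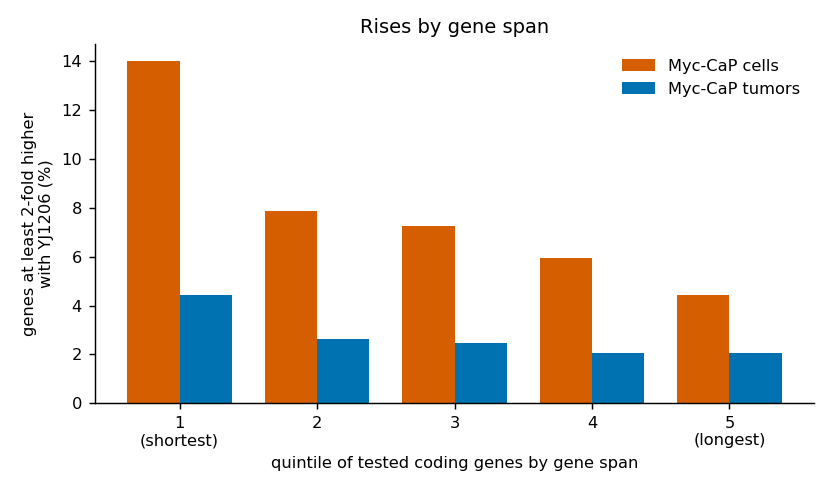
Percent of tested coding genes at least 2-fold higher with YJ1206 (y axis) by quintile of gene span (x axis, shortest to longest), in cells and in tumors. The share was 14% in the shortest quintile, which holds Id1, Id2 and Id3, and 4.44% in the longest in cells.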

How the data were processed

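RNA was sequenced from 12 mouse libraries in 4 groups of 3, assigned from their labels. Per the labels, libraries were made after ribosomal RNA depletion, although the labels name polyA RNA for the cells and total RNA for the tumors; the submitters' processing notes name kallisto and GRCm38/mm10, with versions not given in the sources used here. The authors deposited, per experiment, a table of estimated counts per gene, not scaled between libraries, and a table of TPM, scaled within each library for length and to 1000000. Estimated counts were rounded to whole numbers, as the tests had been planned for counts.

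Cells and tumors were analysed separately, 6 libraries each, by the quasi-likelihood test of edgeR (version 4.0.16, R 4.3.3) after filterByExpr and TMM scaling, with Benjamini-Hochberg adjustment over all genes tested (11826 in cells, 15558 in tumors) and a threshold of 0.05. CPM are TMM-scaled; errors are SD over 3 libraries, or SE of the log2 fold change. Counts at or under 3 were taken as the floor. The p-values measure the spread between these libraries, as do the intervals of 2 SE, floors cover counting error only, and the scripts were tested on simulated data. Alternatives used DESeq2 1.42.0, limma 3.58.1 on log2(TPM + 1) or log2(TPM + 0.1), other scaling, no filter, a replicate block, and libraries left out.

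The members and the gene lists were chosen with earlier results of these data known. Besides the members, genes were named by rule: at most 3 per pathway list with the largest absolute change among those past the threshold with a mean of at least 1 CPM, the 4 largest rises and 4 largest falls of the short transcripts, the kinases, the E proteins, Smad1, Smad4 and Smad5, the 5 genes most like Id3, and the 3 most abundant of each marker list; Bmp8a, Bmper in cells, Gm10718, Ddit4 and Epcam, a marker without counts, were named after their values were seen. Some genes that the rule names are not reported here. Gene spans and 3′ UTRs came from GENCODE M21.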

Additional observations from a re-analysis of the deposited data

How the results depend on the processing

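In cells, Id3, Id1, Id2, Smad9 and Smad6 were higher under all 14 alternatives run, with Id3 between 4.27 and 4.78 outside the single-library omissions. On log2(TPM + 1) and with total counts Smad6 was 0.15 ± 0.11 and 0.29 (0.48 in the text), Id2 0.58 and 0.72 (0.91), and Smad9 0.84 and 1.11 (1.30). Smad7 and Skil reversed with scaling: Smad7 to −0.31 and −0.30 on log2(TPM + 0.1) and log2(TPM + 1) and −0.11 with total counts, Skil to −0.15, −0.14 and −0.09. The same held for log2(TPM + 1) of genes with a mean of at least 1 TPM (−0.30 and −0.14). The counts of pathway genes and short transcripts called in cells stayed within 1.5 times under all 14.

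In tumors, Smad9 lost its call only from libraries 1 and 2 alone (fewer samples), where members called higher were 0, pathway genes called 0 higher and 0 lower, and short transcripts called lower 1; 3068 genes there had an unadjusted p under 0.05, against 6197 with all libraries. DESeq2 called 2 members higher and 5 pathway genes lower. With limma on TPM the pathway genes called higher were 5, 5 and 6 (pseudocounts 0.1 and 1, and 1 with a mean of at least 1 TPM), against 10; the cause was not tested. The share of higher genes among those called fell from 44.4% to 33.8% and 34.5% on log2(TPM + 0.1) and log2(TPM + 1). Leaving out 1 library at a time gave 1 to 2 members higher, 0 to 1 lower, 2 to 11 pathway genes higher, 1 to 8 lower, 0 to 4 short transcripts higher and 11 to 24 lower; the highest counts of members and of pathway genes lower came without vehicle library 2. Over the same omissions Id3 ranged from 0.075 to 0.50, Id1 ranged from −0.25 to 0.10, Id2 from −0.25 to 0.072 and Skil from −0.07 to 0.018, the last 3 each turning positive without 1 vehicle library (1, 2 and 2). With so few libraries and vehicle tumors this spread, modest changes of low members were beyond the precision.

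Samples share replicate numbers only as a count: deviations of same-numbered libraries correlated between −0.03 and 0.01. With a replicate block, 8905 genes were called in cells (8995 without) and 3477 in tumors (4176 without), and Smad9 was 1.29 in tumors (adjusted p = 0.0082). No other call on a member changed with it.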

Other observations

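Over the 12 libraries, the genes whose log2(TPM + 1) most resembled that of Id3 among 12941 genes were Isca1 (Pearson r = 0.995), Tmsb10 (0.994), Polr1c (0.994), Spsb3 (0.993) and Supt5 (0.993). These libraries form 4 groups, and all 5 genes were highest in the YJ1206-treated cells. Tmsb10, which encodes an actin-binding thymosin, had a mean of 631 TPM in DMSO-treated cells, 3485 in YJ1206-treated cells, 439 in vehicle tumors and 556 in YJ1206 tumors. Supt5, which encodes a subunit of the elongation factor DSIF, had 91.8, 190, 90.6 and 94.0 TPM in the same order. Of the members, Id1 (0.964) and Id2 (0.815) were the most like Id3. The lowest value was that of Smad7 (−0.743), which had 22.5, 18.1, 44.5 and 36.6 TPM in the same order. The untested difference between cells and tumors thus entered its value. All these correlations include the rise of Id3 in cells on which the choice rested, so they are descriptive.

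The deposited pair of tables also gives the length over which each gene was counted, since the ratio of estimated counts to TPM is proportional to it. In cells this length was slightly longer with YJ1206 for Id3 (log2 difference 0.031), Id1 (0.039) and Id2 (0.035), without overlap between groups, and 50.4%, 42.9% and 45.9% of 9253 genes moved as far. The counted length of Smad7 differed by 0.10 and that of Skil by −0.046, with overlap. Shifts of at least 0.1 without overlap were seen in 12.1% of genes in cells, and the Id genes were not among them.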
